A study of Homo sapiens with 12 samples.

Results

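Untreated Caco-2 monolayers are described here from the 3 control libraries of a series of 12, chosen by their label of no treatment. Caco-2 is an established human colon adenocarcinoma line. Per the labels' protocols the cells were seeded on transwell inserts, grown for 21 days in medium with 4.5 g/L glucose and 10% serum, and moved to a HEPES-buffered salt solution, 0.5 mL above and 1.5 mL below the cell layer, which the groups share. The control group received neither ochratoxin A nor Bacillus subtilis CW14, the agents given to the other groups, and those groups enter no comparison here. Nothing in the labels says that the 3 libraries came from separate cultures, so the spread between them may be technical.

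After confluence Caco-2 cells polarise and build a brush border of microvilli, so they serve as a model of the absorptive enterocyte. Enterocytes digest sugars and peptides with enzymes anchored in that brush border, take up the products through membrane carriers, and export dietary fat as lipoprotein particles. The line is also known for a mixed identity, with colonic, small-intestinal and fetal-type genes side by side. Levels below are FPKM, fragments per transcript length and sequencing depth. Dividing by length lets genes be set side by side, but less safely for very short transcripts. Values separated by commas are those of control replicates 1, 2 and 3 in that order, ± is the SD (n = 3), and no group was tested against another.

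A gene is called expressed where it reached at least 1 FPKM in every control library. That held for 11967 of the 26125 rows of the table. Without the 2254 rows of small RNA genes it held for 11951 of 23871, or 50.1%, which is the background for the counts below. Of those 23871 genes, 5619 (23.5%) were listed at 0 in all 3 libraries and 1315 were above the threshold in some libraries and below it in others. The median level was 1.47 FPKM over all genes and 11.7 FPKM over the expressed ones. At least 10 FPKM was reached in every library by 6114 genes, at least 100 by 711, and at least 1000 by 42. Small RNA genes held 88.1%, 97.4% and 96.6% of the FPKM sum of the 3 libraries and are left out below. Absolute depth was not given. The steps of low values put the depth of replicates 2 and 3 at 1.58 and 0.914 times that of replicate 1. These ratios rest on 215 of 1077 and 183 of 863 pairs of low values. They are estimates, as any scaling of the libraries is not stated.

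Of the 5 marker genes named for these cells, 4 were expressed and the classical marker of enterocyte differentiation was not. APOA1, the main protein of high-density lipoprotein (hg19 chromosome 11, 116706467 to 116969131 as deposited, a locus wider than the gene), stood at 4064, 3821 and 3846 FPKM (3910.4 ± 134). CLDN4, a tight junction claudin, stood at 1839, 1726 and 1745 FPKM (1770.1 ± 60.7). Its deposited locus, chromosome 7, 72476601 to 74336166, is also wider than the gene and wider than that of APOA1. CDX2, the transcription factor that sets intestinal identity (chromosome 13, 28536203 to 28543505), stood at 55.9, 62.6 and 51.7 (56.7 ± 5.49). VIL1, which encodes villin, the actin bundler of microvilli (chromosome 2, 219283836 to 219314248), stood at 21.1, 19.2 and 20.3 (20.2 ± 0.930). SI, which encodes sucrase-isomaltase of the brush border (chromosome 3, 164696684 to 164796283), was listed at 0, 0.0624 and 0.145 FPKM. Of these 5 markers sucrase-isomaltase alone lay below 1 FPKM in each library. Other intestinal genes that lay below 1 FPKM in each library, such as FABP2, are given below.

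**Figure D1:**
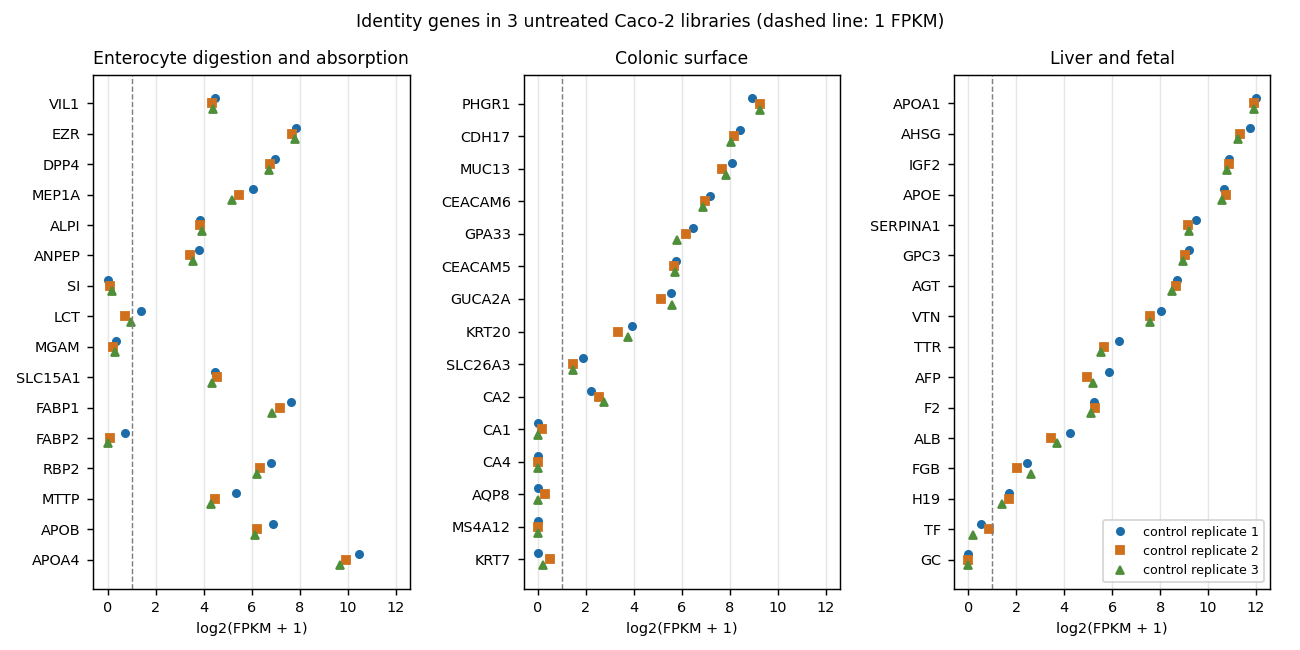
Levels of 47 identity genes in the 3 control libraries, on a log2(FPKM + 1) axis, with 1 symbol per library and a dashed line at 1 FPKM. Sucrase-isomaltase (SI) lies at 0 to 0.145 FPKM and fetuin-A (AHSG) at 2411 to 3390.2 FPKM.

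Housekeeping genes and ribosomal proteins held many of the top 25 places, with intestinal and liver-type secreted proteins among them. GAPDH, the glycolytic dehydrogenase, was highest at 7033, 7124 and 6927 FPKM. FTL, the ferritin light chain, followed at 4888, 4572 and 4892 FPKM. APOA1 ranked 4 of 23871. AHSG, which encodes fetuin-A, a plasma glycoprotein made mainly by fetal and adult liver (chromosome 3, 186330848 to 186339107), ranked 10 at 3390.2, 2543 and 2411 FPKM (2781 ± 531), with replicate 1 highest. IGF2, a fetal growth factor (chromosome 11, 2150340 to 2182439), ranked 18 at 1877, 1851 and 1754 FPKM (1827 ± 64.95). APOE, the receptor ligand of several lipoproteins, ranked 23 at 1602, 1727 and 1545 FPKM, behind CLDN4 at rank 20. The keratin KRT8, the actins ACTG1 and ACTB, the chaperone HSPA8, the thymosin TMSB10 and the nuclear noncoding RNA MALAT1 lay at ranks 11 to 19. The 25 genes together held 14.4% to 14.9% of the FPKM sum without small RNAs, and the 10 apolipoprotein genes listed held 1.63% to 1.82%.

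**Figure D2:**
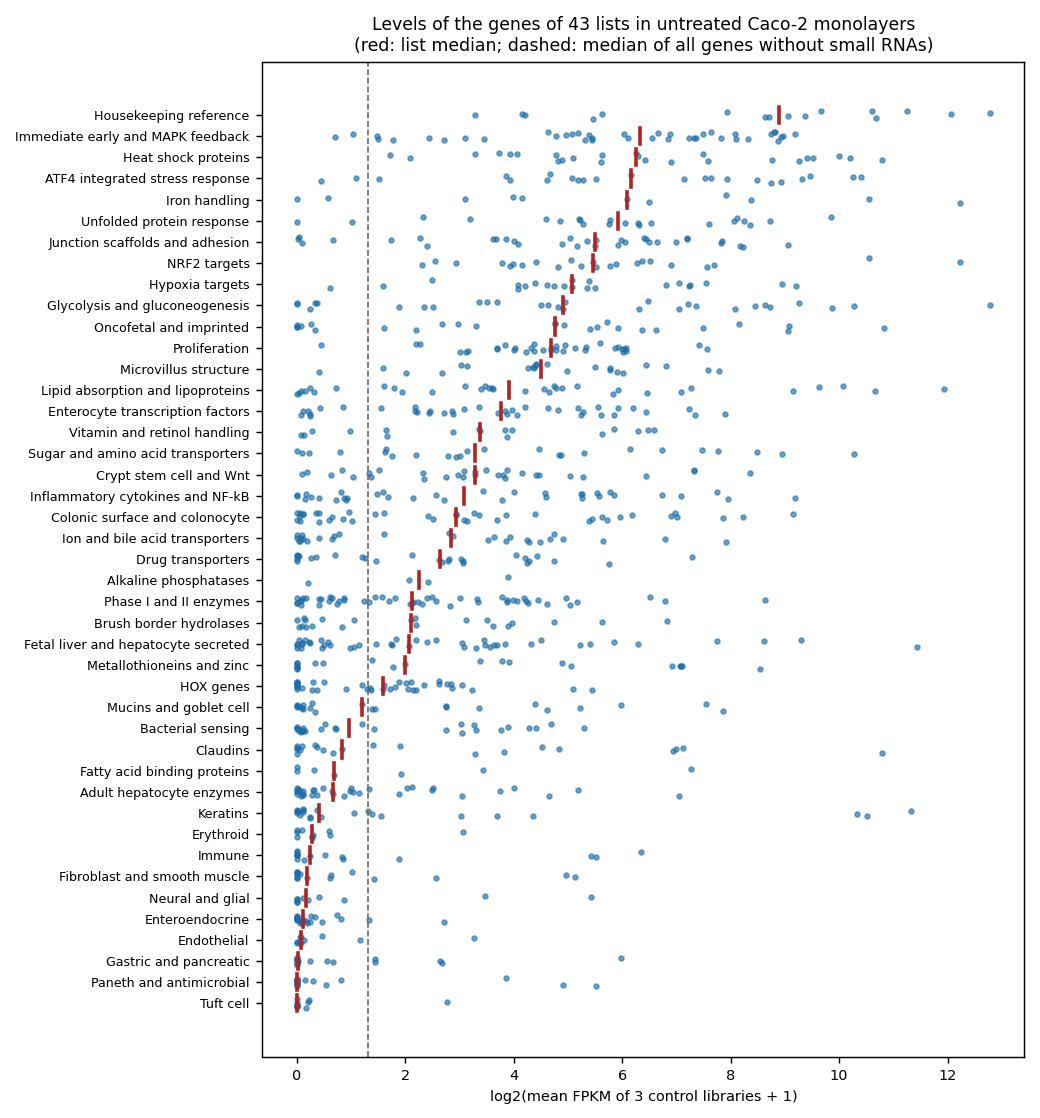
Mean level of each gene of 43 lists on a log2(FPKM + 1) axis, 1 dot per gene, with the list median in red and the median of all genes without small RNAs (1.47 FPKM) as a dashed line. Housekeeping, stress, iron and junction lists sit to the right and lists of other cell types to the left.

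The apical surface showed a nearly complete set of structural genes and part of the listed enzymes. Of 22 genes of microvillus structure 21 were expressed, with a list median of 21.8 FPKM. EZR, which ties actin to the membrane, was highest of them at 231, 207 and 224 FPKM. SLC9A3R1, the scaffold that binds ezrin, stood at 191, 190.0 and 195, and the intermicrovillar cadherin CDHR5 at 97.7, 80.5 and 80.3. USH1C, the scaffold of that cadherin complex, stood at 71.3, 61.4 and 58.7 FPKM. The actin bundlers EPS8, PLS1 and ESPN lay at 56.4 to 60.8, 16.9 to 25.1 and 7.48 to 8.08 FPKM. FSCN1, a bundler of filopodia, lay at 14.1 to 23.8 FPKM. The brush border motors were lower, MYO7B at 4.96 to 5.90 and MYO1A at 1.30 to 2.38. TMIGD1, a late brush border adhesion protein, was listed at 0.590, 0.374 and 0.

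Among 21 brush border hydrolases 11 were expressed, a share of 52.4% near the background, with a list median of 3.31 FPKM. Peptidases led. DPP4, dipeptidyl peptidase 4, stood at 124, 108 and 105 FPKM and MEP1A, a meprin subunit, at 66.5, 43.3 and 35.8. ANPEP, aminopeptidase N, stood at 13.1, 9.87 and 10.8. The disaccharidases were low. LCT, lactase, was listed at 1.65, 0.640 and 0.939 FPKM, MGAM, maltase-glucoamylase, at 0.275, 0.154 and 0.234, and TREH, trehalase, at 0, 0.0787 and 0.274. ENPEP, aminopeptidase A, lay at 0.0803 to 0.101 and MME, neprilysin, at 0.202 to 0.506. The meprin partner MEP1B was listed at 0 in the 3 libraries. Intestinal alkaline phosphatase ALPI stood at 13.6, 13.3 and 14.5 FPKM, above the placental-type genes ALPP at 1.12, 4.98 and 3.45 and ALPPL2 at 3.21, 5.50 and 4.36. ALPI did not overlap either of them, though these near-identical copies can share fragments. ALPL, the tissue-nonspecific form, was listed at 0, 0.348 and 0.101.

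Sugar and amino acid carriers were mostly expressed, 20 of 24, and the highest of them were carriers that are not specific to enterocytes. SLC2A3, the high-affinity glucose carrier GLUT3 of neurons and many tumours, stood at 1148, 1303 and 1249 FPKM. SLC2A1, the widely expressed GLUT1, stood at 568, 483 and 422. The enterocyte sugar carriers were far lower. SLC2A5, the fructose carrier, stood at 30.5, 28.6 and 25.2, SLC5A1, the sodium-glucose carrier of the brush border, at 3.37, 1.92 and 1.80, and SLC2A2, the basolateral GLUT2, at 2.28, 1.61 and 2.43. GLUT3 thus lay above GLUT2 in each library by more than the spread of either. The amino acid carriers SLC3A2 and SLC1A5 lay at 329 to 413 and 163 to 192, and the peptide carrier SLC15A1 at 19.4 to 22.5. SLC6A19, the main neutral amino acid carrier of the small-intestinal brush border, was listed at 0.0776, 0.294 and 0.128.

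Of 28 ion and bile acid transport genes 16 were expressed (57.1%, against 50.1% over all genes). The sodium pump subunit ATP1B1 stood at 261, 247 and 216 FPKM and the sulfate carrier SLC26A2 at 132, 111 and 85.6. CFTR, the chloride channel, stood at 7.59, 6.40 and 4.98. The bile acid exporter subunits SLC51A and SLC51B lay at 9.08 to 12.6 and 25.6 to 34.2, while the ileal importer SLC10A2 lay at 0.0341 to 0.108. The sodium-hydrogen exchanger SLC9A2 lay at 10.2 to 10.96, and the brush border form SLC9A3 at 0.582 to 0.814. The sodium channel subunit SCNN1A lay at 14.6 to 20.6, and its partners SCNN1B and SCNN1G were listed at 0, 0 and 0 and at 0, 0.0370 and 0.0643. Of the 3 subunits of the absorptive sodium channel, SCNN1A alone was above 1 FPKM.

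Iron genes were among the higher groups, with 9 of 11 expressed and a median of 66.7 FPKM. FTL and the ferritin heavy chain FTH1, at 1477, 1489 and 1510.3 FPKM, store iron. The apical importer SLC11A2 stood at 439, 311 and 238, the transferrin receptor TFRC at 253, 252 and 218, and the exporter SLC40A1 at 103, 82.8 and 81.9. HEPH, the ferroxidase beside the exporter, stood at 78.1, 62.2 and 59.9, and the brush border ferric reductase CYBRD1 at 18.2, 12.1 and 13.98. HAMP, the liver hormone hepcidin, was listed at 0 in the 3 libraries.

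Lipid absorption and lipoprotein genes were well represented, 27 of 34 expressed, with a median of 14.4 FPKM. APOA4, an apolipoprotein of intestinal chylomicrons, stood at 1427, 984 and 826 FPKM. APOC3 stood at 919.9, 757 and 708 and APOA2 at 712, 485 and 497. APOB, the backbone of chylomicrons, stood at 119.6, 73.02 and 69.3, and MTTP, which loads it with fat, at 39.8, 21.1 and 18.98. For APOB and MTTP replicate 1 lay above the other libraries, whose values were close to each other. APOBEC1, which edits the APOB transcript in the intestine, was listed at 16.1, 8.28 and 4.34. NPC1L1, the cholesterol importer, stood at 10.7, 11.5 and 11.5, but the sterol exporters ABCG5 and ABCG8 were listed at 0.0762, 0 and 0 and at 0, 0 and 0. MOGAT2, the intestinal monoacylglycerol acyltransferase, was listed at 0, 0 and 0.543, and its relative MOGAT3 at 20.5, 17.4 and 14.8. CD36, a fatty acid translocase, was listed at 0.0852, 0.0807 and 0.

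Fatty acid binding proteins showed the liver form without the intestinal form. FABP1, the liver-type protein that enterocytes also make, stood at 198, 146 and 115 FPKM. FABP2, the intestinal type, was listed at 0.665, 0.0601 and 0. The ileal bile acid binder FABP6 was listed at 0, 0 and 1.82. FABP3 and FABP5 lay at 9.24 to 10.6 and 1.68 to 4.37, and FABP4 and FABP7 were listed at 0 throughout. Retinol genes included RBP2, the intestinal cellular retinol binder, at 110.0, 80.4 and 73.2 FPKM, and RBP4, the plasma retinol carrier, at 76.4, 72.9 and 83.6. LRAT, which esterifies retinol in enterocytes, lay at 0.171 to 0.281, and CUBN, the vitamin B12 receptor, was listed at 0.0490, 0.103 and 0.

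Colonic genes were present for surface glycoproteins and low for the carriers and anhydrases of the mature colonocyte. Of 40 genes 25 were expressed (62.5%), with a median of 6.63 FPKM. PHGR1, a small protein of the gut epithelium, stood at 491, 618 and 603 FPKM. CDH17, the intestinal cadherin, stood at 339, 291 and 267, and MUC13, a membrane mucin, at 271, 200.2 and 225. The carcinoembryonic family members CEACAM6, CEACAM1 and CEACAM5 lay at 117 to 143, 109 to 134 and 50.4 to 52.8. GPA33, a colon cancer antigen, stood at 87.5, 71.3 and 55.2, and the hormone guanylin, GUCA2A, at 45.9, 33.6 and 47.8. Uroguanylin, GUCA2B, was listed at 0, 1.33 and 1.73.

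The low end held several textbook colonocyte genes. SLC26A3, the chloride-bicarbonate exchanger of the colon surface, stood at 2.65, 1.72 and 1.73 FPKM. The carbonic anhydrase CA2 stood at 3.63, 4.78 and 5.75, CA1 was listed at 0, 0.125 and 0, and CA4 at 0 in the 3 libraries. MS4A12, a colonocyte membrane protein, was likewise listed at 0, and AQP8, a colonic water channel, at 0, 0.225 and 0. LGALS4, a galectin that is abundant in gut epithelium, stood at 2.36, 1.03 and 1.80.

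Several liver-type secreted proteins were high, but the hepatocyte set was not complete. Of 45 genes for proteins that liver secretes, 28 were expressed (62.2%), with a median of 3.18 FPKM. Below AHSG came SERPINA1, alpha-1-antitrypsin, at 726, 577 and 585 FPKM, and VTN, vitronectin, at 261, 189 and 191. TTR, transthyretin, stood at 75.9, 49.2 and 44.99. AFP, alpha-fetoprotein of fetal liver and yolk sac, stood at 57.6, 30.05 and 36, and its adult relative ALB, albumin, at 17.7, 9.98 and 12.1. AFP lay above ALB in each library, and replicate 1 was highest for both. Of the fibrinogen chains FGB lay lowest at 3.08 to 5.14, below FGA at 6.31 to 11.9 and FGG at 7.999 to 13, which overlapped. Prothrombin F2 lay at 33.5 to 38.5 and coagulation factors F7 and F10 at 17.5 to 20.95 and 20.1 to 23.6. TF, transferrin, was under 1 FPKM at 0.164 to 0.848, HP, haptoglobin, was listed at 4.11, 2.01 and 0.822, and GC and ITIH4 were listed at 0 throughout.

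Enzymes of the adult hepatocyte were fewer, 12 of 35 expressed (34.3%), with a median of 0.579 FPKM. PCK1, the gluconeogenic enzyme, was highest at 173, 129 and 89.6 FPKM, with values that spread more than the median gene. ASS1, of the urea cycle, stood at 27.3, 24.1 and 21.2. The asialoglycoprotein receptor subunits ASGR1 and ASGR2 lay at 13.5 to 16.7 and 31.7 to 39.9. CPS1, the first urea cycle enzyme, was listed at 1.30, 0.689 and 0.921, and OTC, the next, at 0.135, 0 and 0. The drug oxidase CYP2E1 lay at 0.252 to 0.665, and CYP7A1, of bile acid synthesis, was listed at 0.0725, 0 and 0.

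Oncofetal and imprinted genes had 19 of 25 members expressed and a median of 26.1 FPKM. GPC3, a heparan sulfate proteoglycan of fetal liver and hepatoma, stood at 588, 527 and 498 FPKM. HMGA1, a chromatin protein of embryonic and tumour cells, stood at 266, 301 and 284, and the imprinted retroelement gene PEG10 at 168, 176 and 189.8. The fetal mRNA-binding proteins IGF2BP1, IGF2BP2 and IGF2BP3 lay at 49.2 to 67.8, 43.1 to 47.4 and 26.9 to 31.1. H19, the noncoding imprinted neighbour of IGF2, stood at 2.24, 2.22 and 1.63 FPKM, far under IGF2. LIN28B, a blocker of let-7 maturation, stood at 4.01, 4.39 and 2.36, while LIN28A was listed at 0, 0.0320 and 0.111. POU5F1, DLK1 and PEG3 were listed at 0 throughout, and SOX2, a stem cell and foregut factor, stood at 2.36, 5.59 and 8.13.

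Transcription factors of the enterocyte were mostly expressed, 31 of 38, with a median of 12.7 FPKM. ELF3, an epithelial ETS factor, stood at 240.4, 256 and 214 FPKM and KLF5, a crypt Krüppel-like factor, at 169, 144 and 168. HNF4A, a driver of enterocyte and hepatocyte genes, stood at 160.4, 140.3 and 146, and its intestinal relative HNF4G at 4.86, 2.82 and 3.21. FOXA2, a factor of endoderm, stood at 61.1, 57.97 and 60.2. GATA6 stood at 38.3, 49.97 and 55.2, while GATA4, the factor of the proximal small intestine, lay at 0.229 to 0.543. CDX1 was listed at 0, 0.157 and 0 beside CDX2 at 51.7 to 62.6 FPKM. PPARG, a lipid-sensing nuclear receptor, lay at 37.1 to 56.2, the xenobiotic receptor NR1I2 at 2.84 to 4.04, and the bile acid receptor NR1H4 at 1.19 to 3.18.

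HOX genes, which mark position along the body axis, were present from clusters A, B and C and not from D. Of 39 genes 21 were expressed (53.8%, near the background). Cluster A had 7 of 11, cluster B 6 of 10, cluster C 8 of 9 and cluster D 0 of 9, of which 7 were listed at 0 in all 3 libraries. HOXB7 was highest at 46.6, 41.3 and 39.6 FPKM, followed by HOXB9 at 39.6, 29.7 and 30.05. The next, HOXC6, stood at 10.8, 7.60 and 6.88, and did not overlap HOXB9. HOXA13, HOXB13 and HOXC13, the posterior members, lay at 2.31 to 3.88, 1.80 to 3.56 and 6.46 to 8.47. HOXD13 was listed at 0 throughout. The highest HOXD member, HOXD8, lay at 0.163 to 0.269.

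**Figure D3:**
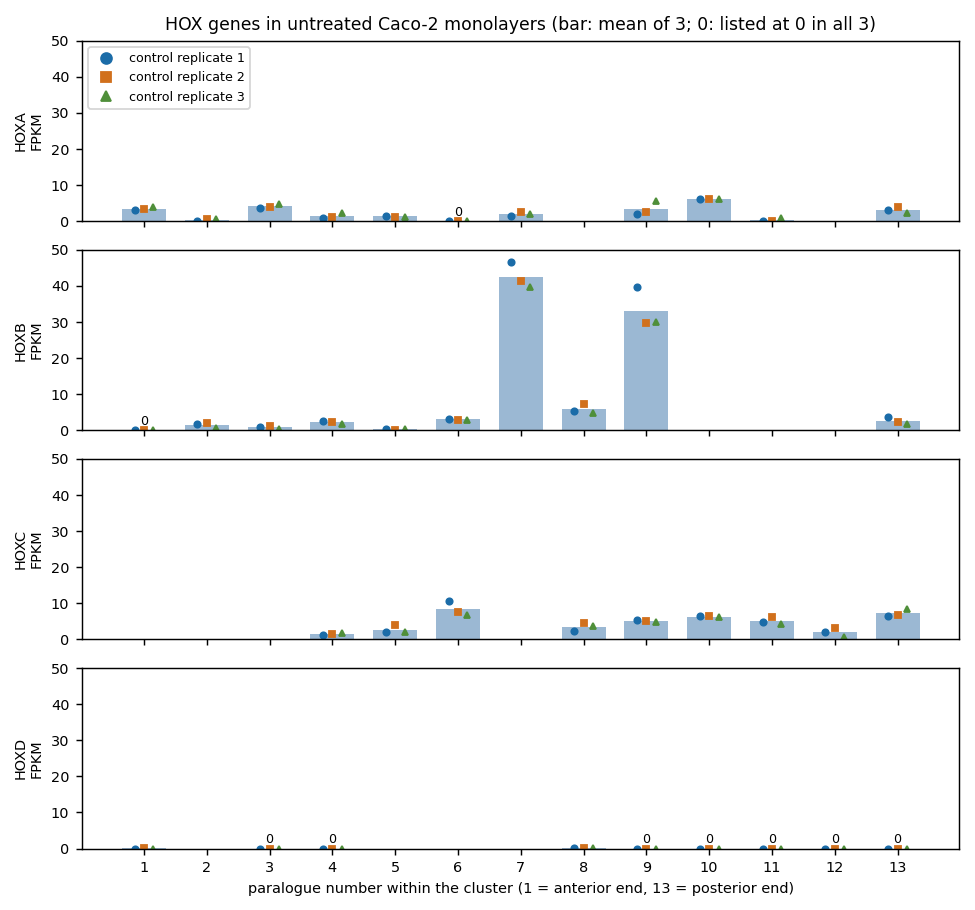
Level of 39 HOX genes by cluster and paralogue number, FPKM on a linear axis, with the mean of 3 control libraries as a bar and each library as a symbol. HOXB7 and HOXB9 stand above the rest, and no HOXD gene reaches 1 FPKM.

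Junction genes were largely complete, with 29 of 33 scaffold and adhesion genes expressed and a median of 44.3 FPKM. EPCAM, an epithelial adhesion protein, stood at 567, 532 and 492 FPKM and CDH1, E-cadherin, at 290.1, 277 and 294. F11R, a junctional adhesion molecule, stood at 223, 225 and 235, and its relatives JAM2 and JAM3 were listed at 0.0481, 0 and 0.158 and at 0.467, 0.516 and 0.769. CDH2, N-cadherin, was listed at 0, 0.0292 and 0. Of 21 claudins 10 were expressed (47.6%), a share near the background. Below CLDN4 came CLDN1 at 127 to 153, CLDN3 at 115 to 137 and CLDN7 at 120.4 to 122, 3 sealing claudins. The range of CLDN3 overlapped those of the other two, and CLDN1 lay above CLDN7. CLDN2, a pore-forming claudin, stood at 16.9, 11.2 and 11.3, and CLDN15, another, at 10.2, 6.36 and 9.57. CLDN5, CLDN8, CLDN10 and the gastric CLDN18 lay under 1 FPKM in every library.

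Of 22 keratins 7 were expressed (31.8%, against 50.1% over all genes), and 4 reached 10 FPKM in every library. The 3 that reached 100 FPKM in every library were the simple-epithelial KRT8, KRT18 and KRT19. KRT8 stood at 2330.4, 2489 and 2872 FPKM, KRT18, its partner, at 1131, 1235 and 1502, and KRT19 at 1477, 1398 and 1503. The deposited loci of KRT8 and KRT18 are the same, so they span each other. KRT20, a marker of gut differentiation, stood at 14.1, 9.06 and 12.5. KRT7, which colon epithelium lacks, was listed at 0, 0.411 and 0.143, and the basal keratins KRT5 and KRT14 at 0, 0.0583 and 0.203 and at 0.136, 0 and 0. VIM, vimentin, stood at 1.58, 2.33 and 1.87.

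Markers of the other epithelial lineages differed between lineages. Of 23 mucin and goblet genes found, 10 were expressed (43.5%, near the 50.1% over all genes), 6 of them at 10 FPKM or more. Of 5 defining goblet markers 1 was expressed, the trefoil peptide TFF3 at 36.05, 41.3 and 32.3 FPKM. MUC2, the gel mucin, lay at 0.0144 to 0.125, and ATOH1 and CLCA1 were listed at 0 throughout. TFF1, the gastric trefoil, stood at 66.7, 69.9 and 48.4 and AGR2, a secretory disulfide isomerase, at 192, 168 and 200.2. Of 4 Paneth markers 2 were expressed, lysozyme LYZ at 51.9, 45.7 and 37.03 and the phospholipase PLA2G2A at 33.9, 31.5 and 21.7, while the defensins DEFA5 and DEFA6 were listed at 0. DEFB1, an epithelial defensin, was listed at 20.4, 7.36 and 12.7. The enteroendocrine list had 2 of 21 genes expressed and the tuft list 1 of 11. CHGB, a granin, stood at 1.35, 2.05 and 1.13, and CHGA, GCG and SST were listed at 0.

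Markers of cells outside the epithelium gave no complete set. Of 5 fibroblast markers COL1A1 was expressed, at 1.57, 1.86 and 1.65 FPKM, with COL1A2 and DCN listed at 0 throughout. Of 4 immune markers the lysosomal protein CD68 was expressed, at 93.2, 77.5 and 71.7, and PTPRC, which encodes CD45, was listed at 0. CD74, the invariant chain, stood at 33.8, 43.7 and 48.1 with HLA-DRA listed at 0. No defining endothelial or erythroid marker reached 1 FPKM in every library, and PECAM1 was listed at 1.55, 0.861 and 1.30. TUBB3, a tubulin of neurons, stood at 39.9, 41.5 and 43.7, and SNAP25 and MAP2 were listed at 0. Of 17 gastric and pancreatic genes found, 4 were expressed (23.5%, against 50.1% over all genes). Of 3 defining pancreatic markers 1 was expressed, near the threshold at 1.62, 1.03 and 2.51 FPKM, and 2 were listed at 0 throughout. Of 2 gastric markers 0 were expressed. PDX1, a factor of pancreas and duodenum in that list, stood at 4.76, 6.47 and 4.50.

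Crypt and cell cycle genes were expressed in these monolayers on day 21. Of 35 proliferation genes 34 were expressed, with a median of 24.9 FPKM. CDK1, the mitotic kinase, was highest at 229, 177 and 160.1 FPKM, followed by AURKA at 178, 167 and 163. MKI67 stood at 38.8, 38.03 and 40.5, TOP2A at 69.97, 69.1 and 60.2 and PCNA at 53.9, 71.1 and 53.1. The replication factor CDC45 was the exception, at 0.591, 0.224 and 0.260. Of 30 crypt and Wnt genes found, 24 were expressed. DKK1, a secreted Wnt antagonist, stood at 246, 270.0 and 465 FPKM, MYC at 163, 151 and 166 and CCND1 at 145, 162 and 173. The Wnt feedback genes AXIN2 and RNF43 lay at 11.4 to 14.6 and 18.7 to 22.7, and ASCL2, a stem cell factor, at 16.96 to 22.3. LGR5, the crypt stem cell receptor, stood at 2.62, 3.74 and 5.60, while OLFM4, another crypt marker, lay at 0.0451 to 0.0783.

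Of 52 phase I and II drug metabolism enzymes 32 were expressed (61.5%, against 50.1% over all genes). The conjugation enzyme GSTP1 stood at 419, 397 and 369 FPKM, the quinone reductase NQO1 at 96.8, 81.1 and 91.8 and the oxidase CYP2S1 at 127, 100.4 and 102. CYP3A4, the main drug oxidase of the small intestine, was listed at 0, 0 and 0.246, its relative CYP3A5 at 4.80, 4.06 and 5.89, and CYP3A7, the fetal form, at 0 throughout. The carboxylesterases CES1 and CES2 lay at 15.8 to 20.7 and 13.1 to 14.2, without overlap. CYP1A1, induced by aromatic ligands, stood at 12.01, 18.5 and 16.2. UGT1A8 and UGT1A10, glucuronidation enzymes of the gut, were listed at 0, 0.173 and 0 and at 0, 0 and 0, and share exons with the other UGT1A genes. GSTT1 was listed at 0 throughout.

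Of 28 drug transporters 18 were expressed. The anion importer SLCO2B1 was highest at 167, 150.3 and 148 FPKM. The apical export pump ABCC2 stood at 16.1, 15.3 and 15.2, ABCG2 at 6.75, 6.21 and 4.88 and ABCB1, P-glycoprotein, at 5.75, 5.08 and 5.32. ABCG2 and ABCB1 overlapped each other and lay below ABCC2. The basolateral pump ABCC3 stood at 18.5, 19.5 and 15.9. The liver importers SLCO1B1 and SLCO1B3 and the phospholipid pump ABCB4 were listed at 0 throughout.

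The medians of the early response, heat shock, unfolded protein, ATF4 and NRF2 lists lay above the 11.7 FPKM median of expressed genes in the untreated cells. This is not particular to stress genes. The medians of the housekeeping (476), iron (66.7), junction (44.3) and proliferation (24.9) lists lay above it too. The labels do not say how long these cells stayed in the salt solution before collection, so the levels are those of cells after an unknown time in it. The immediate early and MAPK feedback list had 37 of 40 genes expressed and a median of 80.1 FPKM. JUND stood at 598, 590.1 and 565 FPKM, JUNB at 523, 496 and 383, JUN at 472, 464 and 399 and FOS at 486, 437 and 358, all subunits of the AP-1 factor. ZFP36, which speeds the decay of AU-rich mRNAs, stood at 587, 479 and 435, and KLF6 at 525, 481 and 457. The exception under 1 FPKM throughout was EGR3, at 0.281 to 0.891.

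All 25 heat shock genes were expressed, with a median of 75.7 FPKM. HSPA8, the constitutive cytosolic chaperone, stood at 1985, 1688 and 1657 FPKM. The inducible HSPA1A and HSPA1B, near-identical copies that can share fragments, stood at 1381, 1182 and 982 and at 1184, 1029 and 843. HSPA6, an HSP70 gene expressed mainly under stress, stood at 81.6, 92.4 and 80. For HSPA1A and HSPA1B replicate 1 was highest and replicate 3 lowest, while HSPA6 was highest in replicate 2. The promoters of HSPA6 and HSPA8 are shown because they hold matches to the heat shock element, the site bound by heat shock factors. They are the 250 bases before the start in RefSeq (GRCh38.p14), chr1:161524290-161524539 on the plus strand and chr11:123062137-123062386 on the minus strand, with matches in capitals.
HSPA6: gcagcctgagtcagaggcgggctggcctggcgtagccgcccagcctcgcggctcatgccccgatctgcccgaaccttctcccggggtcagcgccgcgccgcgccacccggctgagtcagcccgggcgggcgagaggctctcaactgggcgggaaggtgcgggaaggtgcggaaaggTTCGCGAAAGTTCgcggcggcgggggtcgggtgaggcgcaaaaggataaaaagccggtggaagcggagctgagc
HSPA8: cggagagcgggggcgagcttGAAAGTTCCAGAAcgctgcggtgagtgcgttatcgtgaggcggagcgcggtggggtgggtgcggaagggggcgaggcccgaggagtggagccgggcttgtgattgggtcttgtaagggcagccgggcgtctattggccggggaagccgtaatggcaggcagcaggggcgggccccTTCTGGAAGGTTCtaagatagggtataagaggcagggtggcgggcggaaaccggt
The motif searched was 3 units that alternate between GAA and TTC, starting with either, with NN between neighbouring units. Each form is the reverse complement of the other, so both strands were covered, and overlapping matches were counted. HSPA6 had 1 match and HSPA8 had 2. Of 35116 promoter windows of 250 bases, 0.441% held at least 1 match and 0.0342% at least 2. Because these genes were picked for holding matches, the shares are no test of them. The promoters of the other heat shock genes are not shown. A match is a description of letters only.

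The integrated stress response list, the genes of the factor ATF4, had 21 of 23 genes expressed and a median of 70.4 FPKM. ATF4 itself stood at 1374, 1295 and 1377 FPKM and DDIT3, the pro-apoptotic factor CHOP, at 553, 462 and 442. TRIB3, a pseudokinase induced by ATF4, stood at 422, 410.0 and 453. The amino acid synthesis genes of the list were lower, with ASNS at 12.1 to 15.7, PHGDH at 30.4 to 39.7 and PSAT1 at 39.3 to 53.9. FGF21, a stress hormone, was under 1 FPKM at 0.186 to 0.585. The unfolded protein response list had 20 of 22 expressed and a median of 59.8 FPKM. HSPA5, the main endoplasmic reticulum chaperone, stood at 957, 854 and 947, and XBP1 at 407, 408 and 456. The stress sensor ERN1 stood at 1.37, 0.639 and 1.06, and ERN2, its gut form, was listed at 0.

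All 23 NRF2 targets were expressed, led by the ferritins, with TXNRD1 at 74.7 to 86.3 and HMOX1 at 12.8 to 21.2. Hypoxia targets had 20 of 22 expressed, and NDRG1 stood at 632, 598 and 538, VEGFA at 161, 157 and 137 and CA9 at 21.7, 16.04 and 14.7. Of 29 genes of glycolysis and gluconeogenesis 24 were expressed. LDHA stood at 1336, 1232 and 1147 and the muscle-type pyruvate kinase PKM at 338, 353 and 349, above its liver form PKLR at 12.6, 10.01 and 8.61. G6PC, the last enzyme of glucose release, lay at 0.149 to 0.437, and the hexokinase HK3 was listed at 0.

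Of 34 inflammatory genes 21 were expressed (61.8%, against 50.1% over all genes). MIF, a constitutive cytokine, stood at 641, 576 and 527 FPKM and IL32 at 268, 239 and 229.5. CCL20, which draws lymphocytes and dendritic cells to epithelium, stood at 194, 120.0 and 87.9. The EGF receptor ligands AREG and EREG lay at 102 to 107 and 54.8 to 58.7. IL6 and CSF2 were listed at 0 throughout. Of 26 bacterial sensing genes 13 were expressed, a share near the background. The adaptor MYD88 stood at 20.6, 16.2 and 18.9 and the receptors TLR2 and NOD1 at 7.76 to 9.87 and 4.63 to 6.77. TLR5, the flagellin receptor, lay at 0.571 to 0.730 and TLR4, the endotoxin receptor, was listed at 0.110, 0.0461 and 0. LY96, the partner of TLR4, was listed at 0 throughout.

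The 3 libraries were close for most genes. The Spearman correlation over the 12620 genes that averaged 1 FPKM or more was 0.981 between replicates 1 and 2, 0.974 between 1 and 3, and 0.984 between 2 and 3. These are descriptions across genes, which are not independent replicates. The median distance between the highest and the lowest library was 0.28 on the log2(FPKM + 1) scale. A distance of at least 1 on that scale, a 2-fold spread, was found in 395 of the 12620 genes, or 3.13%. Of these 395 genes replicate 1 was highest in 143, replicate 2 in 108 and replicate 3 in 144. Over all 12620 genes the replicates were highest in 37.7%, 27.7% and 34.7%. Among the 6549 genes that averaged 10 FPKM or more a distance of at least 1 was found in 61. Of these 61, replicate 1 was highest in 33, replicate 2 in 8 and replicate 3 in 20. The steadiest of the 6549 genes included SETD3, a histidine methyltransferase, at 48.5, 48.7 and 48.6 FPKM. Others were TUBA1A, an alpha-tubulin, at 127, 127 and 127, and PRDX1, a peroxidase, at 189, 188 and 189.

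**Figure D4:**
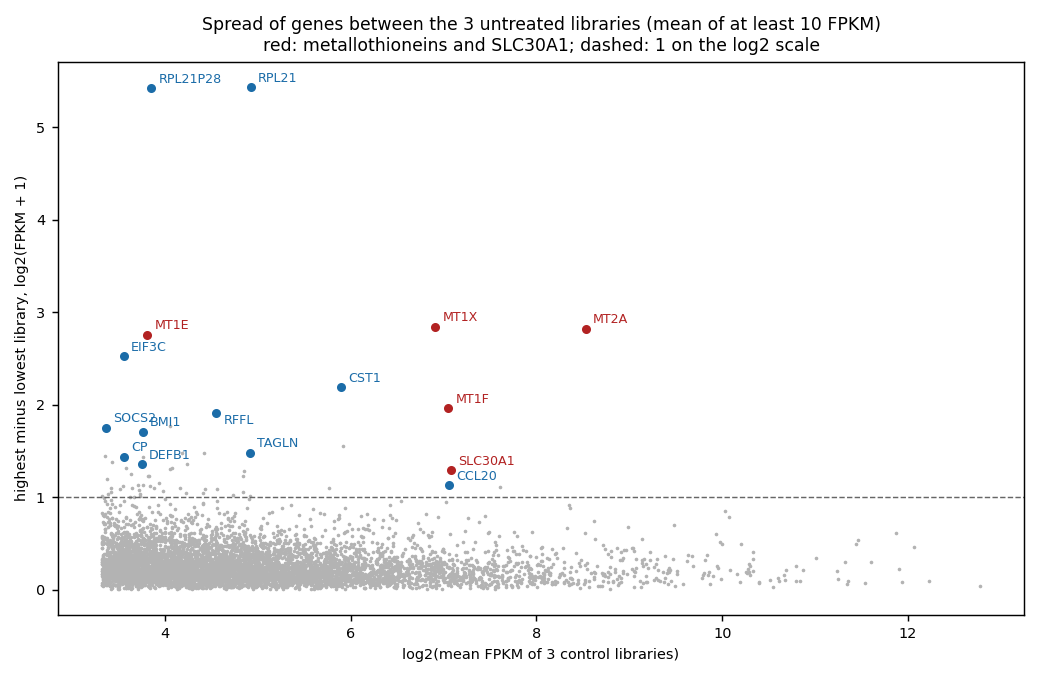
Distance between the highest and the lowest of 3 control libraries, on the log2(FPKM + 1) scale, against the mean level on a log2 scale, for 6537 genes averaging 10 FPKM or more, rows with a date for a symbol left out. The metallothioneins and SLC30A1, in red, lie at 1.30 to 2.85, above the dashed line at 1.

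Metallothioneins, small cysteine-rich proteins that bind zinc and copper and are induced by metal, held several of the widest spreads. Of 13 metallothionein and zinc genes averaging 1 FPKM or more, 5 spread 2-fold or more. MT2A stood at 802, 196 and 112 FPKM and MT1X at 275, 49.5 and 37.3. MT1F stood at 252, 81.99 and 63.9 and MT1E at 31.7, 6.63 and 3.83. Replicate 1 was highest for these 4 genes, which are similar in sequence and can share fragments. Without replicate 1 the mean of MT2A was 154 FPKM in place of 370.2, that of MT1X 43.4 in place of 121, that of MT1F 73.0 in place of 133, and that of MT1E 5.23 in place of 14.1. SLC30A1, a zinc exporter that is also induced by metal, stood at 203, 121 and 82.2. Replicate 3 was highest for MT1A, at 9.02, 6.56 and 12.6, and for the zinc importer SLC39A14, at 134, 132 and 141. A part of metal in these spreads was not tested. MTF1, the metal-sensing factor, stood at 2.50, 3.14 and 3.23. MT1B, MT1H, MT1L, MT1M, MT3 and MT4 were listed at 0 throughout.

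The promoters of 3 of the genes that were highest in replicate 1, and of MT1H, listed at 0, are shown with their matches to the metal response element, the site bound by MTF1. Each is the 250 bases before the start in RefSeq (GRCh38.p14), with matches in capitals. MT2A is chr16:56608334-56608583, MT1X chr16:56682220-56682469 and MT1H chr16:56669564-56669813, on the plus strand, and SLC30A1 is chr1:211579162-211579411, on the minus strand.
MT2A: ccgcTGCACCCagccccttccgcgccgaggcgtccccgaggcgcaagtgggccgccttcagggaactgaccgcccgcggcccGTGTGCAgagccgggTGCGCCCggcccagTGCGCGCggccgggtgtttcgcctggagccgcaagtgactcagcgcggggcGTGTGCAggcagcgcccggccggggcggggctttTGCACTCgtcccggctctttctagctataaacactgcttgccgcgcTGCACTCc
MT1X: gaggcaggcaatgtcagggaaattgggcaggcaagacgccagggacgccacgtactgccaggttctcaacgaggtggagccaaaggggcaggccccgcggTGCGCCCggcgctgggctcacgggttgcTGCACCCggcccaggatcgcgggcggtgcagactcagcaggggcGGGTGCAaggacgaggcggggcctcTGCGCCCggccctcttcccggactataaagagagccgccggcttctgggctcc
SLC30A1: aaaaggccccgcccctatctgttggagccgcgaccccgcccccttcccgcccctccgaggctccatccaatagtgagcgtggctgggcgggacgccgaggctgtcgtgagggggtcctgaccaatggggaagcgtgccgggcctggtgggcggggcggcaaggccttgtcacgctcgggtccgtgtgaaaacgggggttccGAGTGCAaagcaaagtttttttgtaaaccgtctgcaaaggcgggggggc
MT1H: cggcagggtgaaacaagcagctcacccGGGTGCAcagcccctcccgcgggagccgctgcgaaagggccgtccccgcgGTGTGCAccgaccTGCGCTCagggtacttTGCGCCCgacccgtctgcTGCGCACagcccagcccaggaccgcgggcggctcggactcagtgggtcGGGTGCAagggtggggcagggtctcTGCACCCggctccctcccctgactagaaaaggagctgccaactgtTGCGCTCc
The motif searched was TGCACNC or TGCGCNC on both strands, with overlapping matches counted. There were 7 matches in MT2A, 4 in MT1X, 1 in SLC30A1 and 8 in MT1H. Of the 35116 promoter windows 24.8% held at least 1 match, 0.370% at least 4 and 0.0313% at least 7. Because these genes were picked by hand, the shares are no test of them. Promoter sequences of MT1A, MT1E and MT1F were not available. A match is a description of letters only, and its relation to the levels was not tested.

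Replicate 1 also differed from the other libraries, by less, in several other lists. Over all 12620 genes it was the highest library in 37.7% and the lowest in 37.7%, and its median difference from the mean of the other libraries was 0.00 on the log2(FPKM + 1) scale. Of 26 colonic genes averaging 1 FPKM or more it was highest in 20, with a median difference of 0.34. Of 27 lipid absorption genes it was highest in 18 (median difference 0.24), and of 29 liver-secreted genes in 19 (0.22). The same held for 8 of 12 brush border hydrolases (0.26), 7 of 12 mucin and goblet genes (0.24) and 9 of 13 vitamin and retinol genes (0.21). Some lists of other kinds leaned the same way, with smaller medians. What the lists have in common was not tested. Replicate 1 was highest in 12 of 16 housekeeping genes (0.13), in 26 of 39 immediate early genes (0.13) and in 13 of 21 hypoxia targets (0.15). Microvillus and junction genes showed little difference, with replicate 1 highest in 8 of 21 (0.02) and in 11 of 29 (0.02). TSPAN8, a gut tetraspanin, stood at 86.7, 51.1 and 46.6 FPKM, and CP, the plasma ferroxidase ceruloplasmin, at 19.6, 9.28 and 6.60. The crypt and Wnt list went the other way, with replicate 1 lowest in 18 of 26 genes and a median difference of -0.26, as did keratins, lowest in 6 of 10 (-0.23). CD44, a crypt adhesion receptor, stood at 11.9, 17.98 and 20.4, LEF1, a Wnt factor, at 5.05, 7.19 and 10, and BMI1, a Polycomb gene, at 5.24, 19.5 and 16.1. TAGLN, an actin-binding protein of smooth muscle and of stretched cells, stood at 15.6, 29.7 and 45.5, CRYAB, a small heat shock protein, at 8.56, 12.6 and 21.5, and CST1, a secreted cystatin, at 18.8, 89.3 and 70.1. The summed level of 6 hepatocyte markers was 81.3, 45.0 and 52.8 FPKM, that of 4 Paneth markers 85.8, 77.1 and 58.7, and that of 5 fibroblast markers 2.01, 3.09 and 3.45, and their part in the differences was not tested. The part of sequencing depth in the differences was not tested either. With 3 libraries of 1 group no test applies.

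**Figure D5:**
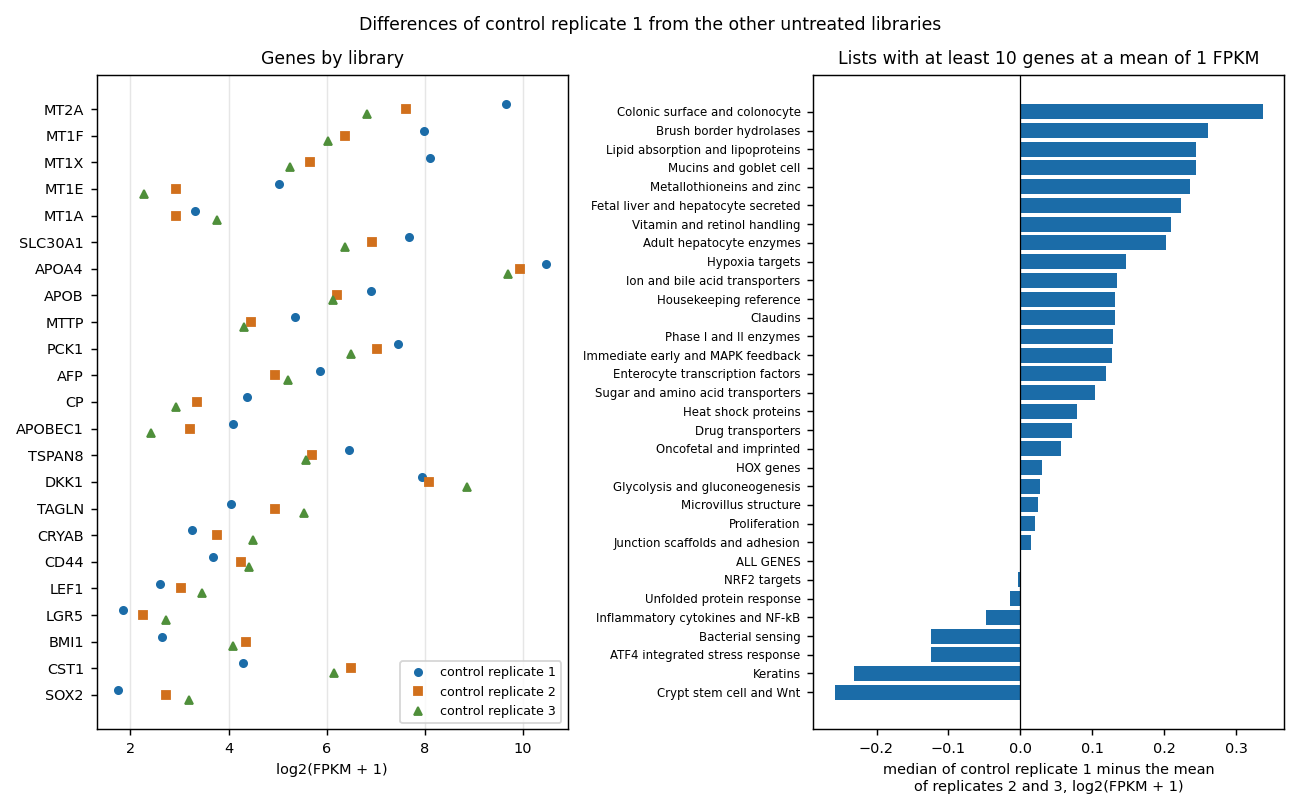
Left, 23 genes in the 3 control libraries on a log2(FPKM + 1) axis, chosen after their values were seen. Right, the median over each list of replicate 1 minus the mean of replicates 2 and 3, for lists with at least 10 genes at a mean of 1 FPKM, from -0.26 (crypt and Wnt) to 0.34 (colonic), with all genes near 0.

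Among genes averaging 10 FPKM or more, the 2 widest spreads came from a pair of near-identical copies. RPL21, a ribosomal protein gene, was listed at 53.98, 36.99 and 0.268 FPKM, and RPL21P28, a pseudogene with the same deposited locus, at 0.0300, 0.0721 and 43.3. The libraries with fragments on one had almost none on the other. EIF3C and its copy EIF3CL, subunits of a translation initiation factor, were listed at 2.18, 15.9 and 17.3 and at 20.4, 7.58 and 8.08, so that replicate 1 was lowest for one and highest for the other. The levels of single members of such pairs are uncertain.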

How the data were processed

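RNA from 12 Caco-2 samples in 4 groups of 3 was sequenced as 150-base read pairs, per the labels' protocols; the 3 controls are used here. The deposited table holds FPKM per gene and library, made by the authors. The submitters' processing notes name Cufflinks 2.2.1, TopHat2 2.0.13, cutadapt 1.10, Cuffdiff and Cuffnorm, with build hg19. Their role and order, the annotation and any scaling of libraries are not stated in those notes. Loci are hg19 as deposited and can span neighbours. Near-identical copies can share fragments, and an exact 0 can be a failed estimate, so it is described as listed at 0.

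Levels were summarised as deposited (Python 3.11.15, pandas 2.3.3). Small RNA genes were set apart by symbol and RefSeq gene type. Spread was the distance between the highest and the lowest library on log2(FPKM + 1). The counting of variable genes was run on simulated data with planted changes. These had less noise than the libraries and left out the lowest levels, so the run does not measure the error of the count. Relative depth came from the most common ratio of values under 0.3 FPKM, at a tolerance of 0.01 on the log2 scale. The 45 gene lists hold 1003 genes, of which 998 were found in the table, and the members and lists were chosen with earlier results of these data known. Genes are named if they are in a list, among the 25 highest, or among the 20 widest and 10 narrowest spreads at a mean of at least 10 FPKM; EIF3CL was named after its values were seen. In 28 rows a date replaced the symbol, and these are not named. Alternatives were other thresholds, pseudocounts, scalings and filters, and leaving out each library. Some listed genes and 1 list are not reported here.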

Additional observations from a re-analysis of the deposited data

How the results depend on the processing

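No paired analysis was possible because the results come from 1 group and from no test. The count of expressed rows, 11967, stayed within 1.5 times under each alternative, from 8437 at a threshold of 5 FPKM to 12925 at 0.5 FPKM. The count of genes with a 2-fold spread depended on the settings. Over all rows, small RNAs included, it was 427, and it became 925 and 989 with pseudocounts of 0.1 and 0.01 and 86 among rows with a mean of at least 10 FPKM. It was 146 without control replicate 1, 282 without replicate 2 and 200 without replicate 3; 2 libraries cannot span more than 3. The mean rank correlation, 0.973, was 0.963 with no filter, 0.955 at a mean of at least 10 FPKM and 0.9795 without small RNAs (the last chosen after seeing the data), and 0.968 to 0.977 with 1 library left out. Leaving out a library kept 134 of 135 list counts within 1.5 times. The list counts depended on the threshold: 44 of 45 stayed within 1.5 times at 0.5 FPKM, but 36 at 5 FPKM and 21 at 10 FPKM (the last chosen after seeing the data). At 5 FPKM the HOX count fell from 21 to 6, the brush border hydrolases from 11 to 7, the adult hepatocyte enzymes from 12 to 6 and the phase I and II enzymes from 32 to 19. Of 716 genes checked with a mean of at least 1 FPKM, 16 moved by more than 1.5 times, 11 of them without replicate 1 and 6 without replicate 3. Rescaling to a fixed sum multiplies all levels of a library by the same factor, so the order within a library does not change. Precision at low levels is limited by a depth that is known only as a ratio.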
